A study of Gallus gallus with 6 samples.

Results

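The axon guidance genes of 4 signalling systems were followed in the ductus arteriosus (DA) of the chick: semaphorins with their plexin receptors, ephrins with their Eph receptors, netrins with their UNC5 receptors, and Slits with their Robo receptors. Members were chosen by symbol alone, as every probe set whose annotation gives a single gene symbol of 1 of these 8 families. The rule found 53 of the 20804 probe sets on the array. They stand for 50 of the 11528 genes with a symbol of their own, and where a gene had several probe sets, the one with the highest mean over the arrays was used. The members were 16 semaphorins, 6 plexins, 3 ephrins, 12 Eph receptors, 4 netrins, 4 UNC5 receptors, 2 Slits and 3 Robos. The semaphorins and netrins included *sema3dl* and *ntn4l*, which by their symbols are genes like *sema3d* and *ntn4*.

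Guidance proteins were first described as cues that attract or repel the tips of growing axons. Secreted class 3 semaphorins act through plexins together with neuropilins, while membrane-bound ephrins signal on contact to Eph receptor tyrosine kinases, netrins act through DCC, neogenin and UNC5 receptors, and Slits through Robos. The same molecules steer blood vessels and migrating neural crest cells, from which smooth muscle of the arteries near the heart arises. In mice, *Sema3c* and *Plxnd1* are needed for normal patterning of these arteries, and *Efnb2* marks arterial endothelium and smooth muscle. Neither *sema3c* nor *ntn1* was among the members followed here.

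The arrays held RNA of 3 vessels from Hypeco Nera chick embryos at the internal pipping (IP) stage, shortly before hatching. These were the proximal part of the right-sided DA, next to the pulmonary artery, its distal part, next to the aorta, and the descending aorta. No treatment is described, and each vessel was measured on 2 arrays. The tissue of 10 embryos was pooled for each RNA preparation, but it is not stated whether the arrays of a vessel came from separate pools, and the p-values therefore rest on a spread between arrays that may be technical only. Values are log2 intensities, normalised together over the 6 arrays. A difference of 1 is therefore a doubling, and the level of a probe set cannot be set against that of another. The array medians were 6.61 to 6.66 and the lower quartiles 5.25 to 5.41. The values carry no detection call, and those near or below the lower quartile were treated as not told from background. This line is rough, and a value above it need not be signal. A gene was called higher or lower at a Benjamini-Hochberg adjusted p under 0.05 over all 20804 probe sets in limma, with a median standard error (SE) of 0.167 for a difference.

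The labelled tissues carried the markers of arterial wall. The mean log2 value over 8 smooth muscle markers was 11.32 to 11.47 in the proximal DA, 11 to 11.14 in the distal DA and 9.47 to 9.64 in the aorta. Over 15 endothelial markers it was 8.61 to 8.68, 8.27 to 8.37 and 7.41 to 7.46, respectively. For 11 fibroblast and adventitial markers the order was the opposite, at 9.96 to 10.16, 10.34 to 10.39 and 10.54 to 10.62. Of 19 nerve and Schwann cell markers listed, 10 were measured. *Mbp*, which the paper lists among its top genes by proximal over distal DA ratio, was not among them. None of the 10 was called in any comparison. Of all probe sets, 5.66% (proximal DA against aorta), 1.6% (distal DA against aorta) and 0.25% (proximal against distal DA) were called. At these shares, 0 of 10 tells little of a change in these cells. Of the 10, 4 (*nefl*, *nefm*, *s100b* and *th*) lay below the lower quartile on all 6 arrays. At an unadjusted p under 0.05 in limma, *tubb3* and *sox10* were higher in the proximal DA against each of the other vessels, and 0 were lower. *Tubb3* was 6.65 and 6.71 for the proximal DA, 5.54 and 5.86 for the distal DA and 6.14 and 6.02 for the aorta. The proximal DA exceeded the distal DA by 0.98 in *tubb3* (adjusted p = 0.0747) and by 0.67 in *sox10* (adjusted p = 0.1475). The part of nerve and Schwann cells in the guidance genes was not tested. Melanocyte markers averaged 6.27 and 7.06 in the proximal DA against 5.0 to 5.22 elsewhere, and lung epithelial markers 7.02 and 7.03 against 5.99 to 6.06. Single lung markers shifted in opposite directions between proximal DA replicates 1 and 2, as in *lamp3* (8.37 and 9.97) and *epcam* (7.18 and 6.05).

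The proximal DA and the descending aorta differed in many guidance genes. Of the 50 genes, 7 were called higher and 9 lower in the proximal DA, which is 32.0% of them, while 5.66% of all probe sets were called (3.33% higher and 2.34% lower). Among genes with a symbol whose mean lay above that of the median probe set, 10.3% of 6825 were called, and so were 15 of 37 guidance genes (40.5%). The genes called higher were the receptors *plxna2*, *plxnd1* and *epha2* and the ligands *sema3f*, *sema3g*, *efnb2* and *slit3*. The genes called lower were the ligands *sema3a*, *sema3d*, *sema5a*, *sema5b* and *ntng1* and the receptors *plxnb2*, *epha7*, *robo1* and *robo2*. Calls in both directions were found in semaphorins, plexins and Eph receptors.

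At an unadjusted p under 0.05, 14 guidance genes were higher and 13 lower, beside 18.1% of all probe sets in either direction. The values of the proximal DA and the aorta did not overlap in 35 of the 50 genes, compared with 42.2% of all probe sets. The median size of a difference, whatever its direction, was 0.415 in guidance genes and 0.18 in all probe sets. The median signed difference was 0.128, beside -0.015 for all probe sets. In tissue of mixed cells, fewer cells of a type and less RNA per cell cannot be told apart. Endothelial markers were called higher in 10 of 15 and smooth muscle markers in 7 of 8, while fibroblast and adventitial markers were called lower in 5 of 11 and higher in 1. Markers of other cells were called higher in 5 of 8 for melanocytes, 3 of 8 for lung epithelium, 1 of 6 for leukocytes and 0 of 10 for red blood cells. The part of these cells in the differences of guidance genes was not tested.

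**Figure D1:**
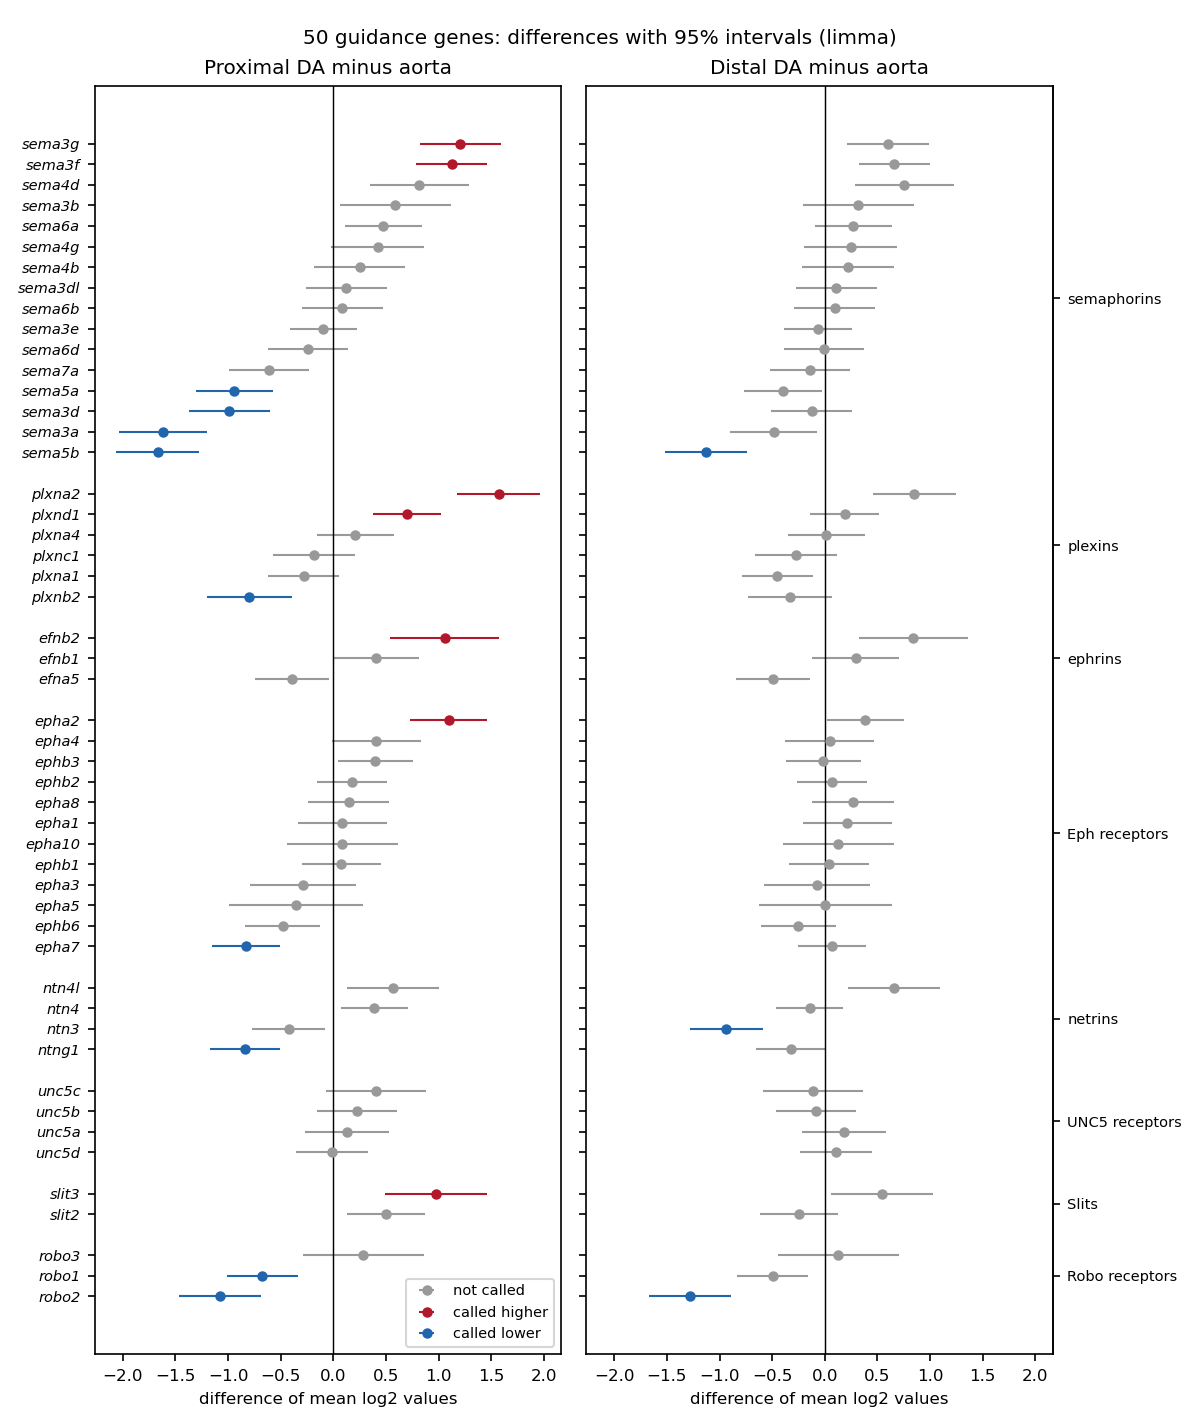
Log2 difference of each of the 50 guidance genes between the vessels named above each panel, with its 95% confidence interval from limma, grouped by family; coloured points were called at an adjusted p under 0.05. Of the calls, 16 lie between the proximal DA and the aorta, 3 between the distal DA and the aorta, and differences reach from -1.67 for *sema5b* to 1.57 for *plxna2*.

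Among the secreted class 3 semaphorins, *sema3f* and *sema3g* were higher and *sema3a* and *sema3d* lower in the proximal DA relative to the aorta. *Sema3f*, a repellent ligand that binds neuropilin-2 with class A plexins, had log2 values of 9.41 and 9.45 for the proximal DA, 8.97 and 8.96 for the distal DA and 8.42 and 8.19 for the aorta. Each vessel stood apart from the others, and the proximal DA exceeded the aorta by 1.12 ± 0.144 (SE, n = 2 arrays per vessel; 2.18-fold, adjusted p = 0.00544). *Sema3g*, a ligand made by arterial endothelium in mice, had values of 7.64 and 8.01, 7.19 and 7.25, and 6.67 and 6.57. It fell in the same order without overlap, with a difference of 1.21 ± 0.165 (2.31-fold, adjusted p = 0.00711).

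*Sema3a*, known in chick brain as collapsin for its collapse of growth cones, ran the other way. Its log2 values were 6.71 and 6.85 for the proximal DA, 7.73 and 8.10 for the distal DA and 8.28 and 8.52 for the aorta. The 3 vessels did not overlap, and the proximal DA lay below the aorta by a log2 difference of -1.62 ± 0.178 (3.07-fold lower, adjusted p = 0.00280). The larger step was inside the DA, where the proximal part lay below the distal part by -1.14 (adjusted p = 0.0680), whereas the distal DA lay below the aorta by -0.48 (adjusted p = 0.355). *Sema3d*, a cue needed in mice for normal pulmonary veins, had values of 9.27 and 9.43, 10.11 and 10.32, and 10.48 and 10.20. Here the distal DA and the aorta overlapped, while both proximal arrays were lower than either, by -0.99 ± 0.165 against the aorta (1.99-fold, adjusted p = 0.0148).

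The annotation of the chicken genome places *sema3d*, *sema3a* and *sema3e* next to each other on chromosome 1, with no protein-coding gene between them. The third of these neighbours, *sema3e*, a ligand of plexin D1, had values of 5.38 to 5.57 on the 6 arrays, close to the lower quartile. Its difference between the proximal DA and the aorta was -0.10 (95% confidence interval -0.415 to 0.225), at a level that is not clear of background. *Sema3g*, *sema3f* and *sema3b* lie near each other on chromosome 12, with 7 and 3 protein-coding genes between them. *Sema3b* was 8.99 and 8.68 in the proximal DA and 8.56 and 7.93 in the aorta, a difference of 0.59 that did not pass (adjusted p = 0.218).

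The class 5 semaphorins, membrane proteins with thrombospondin repeats, were both lower in the proximal DA. *Sema5b* gave the largest difference of all guidance genes, with log2 values of 8.70 and 8.33 for the proximal DA, 9.09 and 9.02 for the distal DA and 10.26 and 10.11 for the aorta. Both parts of the DA were clear of the aorta, by -1.67 ± 0.168 for the proximal DA (3.18-fold lower, adjusted p = 0.00203). *Sema5a* had values of 9.12 and 8.79, 9.46 and 9.54, and 9.91 and 9.88. It rose from vessel to vessel without overlap, and the proximal DA was lower by -0.94 ± 0.158 (1.92-fold, adjusted p = 0.0155).

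None of the 7 members of classes 4, 6 and 7 was called. Of these, *sema7a*, a lipid-anchored semaphorin that binds plexin C1 and integrins, had values of 9.04 and 8.95 in the proximal DA and 9.74 and 9.47 in the aorta (log2 difference -0.61, adjusted p = 0.0857). *Sema4d*, the ligand of plexin B1, was 5.31 and 5.87 against 4.69 and 4.86 (0.81, adjusted p = 0.0644). Both of its aorta values and that of proximal DA replicate 1 lay below the lower quartile, so this size is not exact. A further probe set of *sema4d* lay below the lower quartile on all 6 arrays and gave 0.12, a value not told from background. The remaining members, *sema3dl* included, differed by -0.24 to 0.48.

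**Figure D2:**
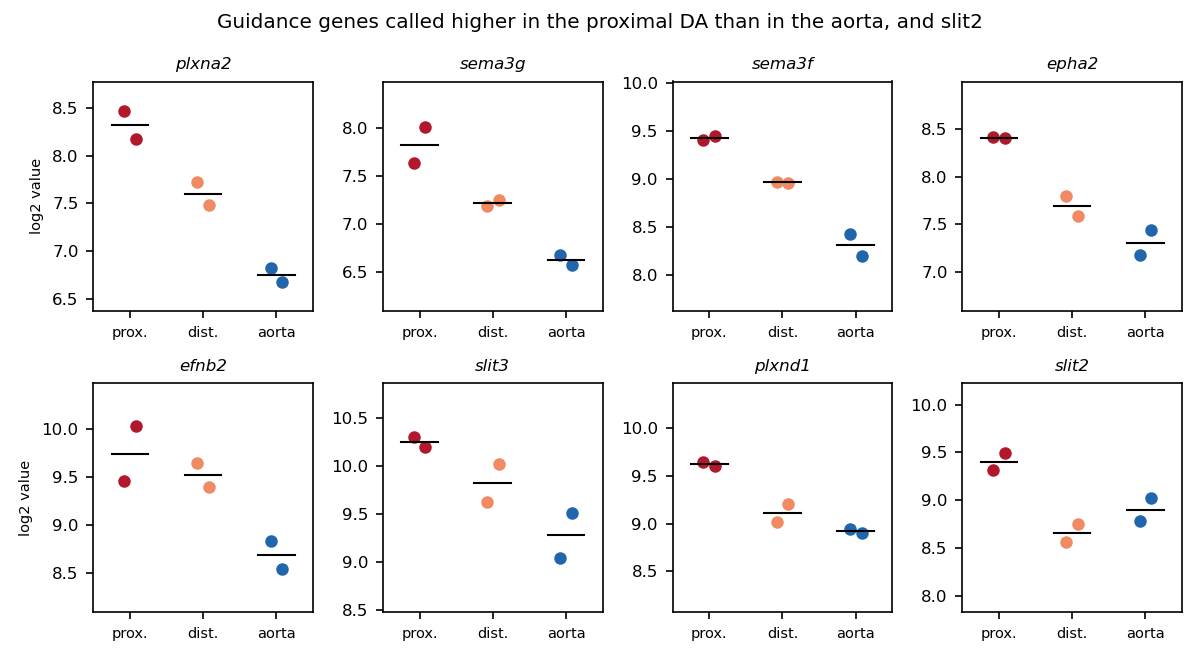
Log2 value on each array (points) and mean of the 2 arrays (lines) in the proximal DA, distal DA and aorta for the 7 guidance genes called higher in the proximal DA relative to the aorta, and for *slit2*; every panel spans the same number of log2 units. In all 7 called genes the distal DA mean lies between the others, while in *slit2* it is the lowest.

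Among the plexins, the receptors of semaphorins, *plxna2* and *plxnd1* were higher and *plxnb2* was lower in the proximal DA. *Plxna2*, which marks cardiac neural crest cells in mouse embryos, had log2 values of 8.47 and 8.17 for the proximal DA, 7.72 and 7.48 for the distal DA and 6.82 and 6.68 for the aorta. The 3 vessels were separate, with similar steps of 0.72 within the DA and 0.85 between the distal DA and the aorta, and the full difference was 1.57 ± 0.168 (2.97-fold, adjusted p = 0.00256). *Plxnd1*, an endothelial receptor of class 3 semaphorins, had values of 9.64 and 9.60, 9.02 and 9.20, and 8.94 and 8.90. Both proximal arrays were higher than the rest, by 0.70 ± 0.140 against the aorta (1.62-fold, adjusted p = 0.0302), and the distal DA exceeded the aorta by 0.19 (adjusted p = 0.756). This call was lost when any 1 of the proximal DA and aorta arrays was left out. It was also lost in the separate fit of the proximal DA and the aorta, which leaving out a distal DA array repeats.

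*Plxnb2*, a receptor of class 4 semaphorins, had values of 8.59 and 8.62 for the proximal DA, 9.14 and 9.01 for the distal DA and 9.61 and 9.20 for the aorta. The vessels did not overlap, and the proximal DA was lower by -0.80 ± 0.172 (1.74-fold, adjusted p = 0.0409). Its other probe set gave a similar difference of -0.84 (adjusted p = 0.0595), and the call was lost without either proximal DA array or aorta replicate 1. It was also lost in the separate fit of the proximal DA and the aorta, which leaving out a distal DA array repeats. *Plxna1*, *plxna4* and *plxnc1* differed by -0.28 to 0.21 and were not called.

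Of the ephrins, *efnb2*, the ligand that marks arteries, was the only member called. Its log2 values were 9.46 and 10.03 for the proximal DA, 9.65 and 9.40 for the distal DA and 8.83 and 8.54 for the aorta. Both parts of the DA lay above the aorta and overlapped each other. The proximal DA exceeded the aorta by 1.06 ± 0.221 (2.08-fold, adjusted p = 0.0363) and the distal DA by 0.84 (adjusted p = 0.157). Without proximal DA replicate 2, which held the highest value, the former difference was 0.775 and was not called. The call was also lost without aorta replicate 2. The separate fit of the proximal DA and the aorta, which leaving out a distal DA array repeats, lost it as well. *Efnb1* was higher by 0.41 (adjusted p = 0.285) and *efna5* lower by -0.39 (adjusted p = 0.221), and neither passed.

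Among the 12 Eph receptors, *epha2* was higher and *epha7* lower in the proximal DA relative to the aorta. *Epha2*, a receptor of A-type ephrins found in endothelium and epithelium, had values of 8.41 and 8.40 for the proximal DA, 7.80 and 7.59 for the distal DA and 7.18 and 7.44 for the aorta. The vessels did not overlap and the difference was 1.10 ± 0.157 (2.14-fold, adjusted p = 0.00840). *Epha7*, a receptor that repels neurites, had values of 7.76 and 7.77, 8.71 and 8.62, and 8.67 and 8.52. The distal DA and the aorta overlapped, and both proximal arrays were lower than either, by -0.83 ± 0.138 against the aorta (1.78-fold, adjusted p = 0.0150).

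The other 10 Eph receptors differed by -0.48 to 0.41 between the proximal DA and the aorta. *Epha1* was below the lower quartile on all 6 arrays. The B-type receptors *ephb1*, *ephb2* and *ephb3*, which bind B-type ephrins such as *efnb2*, lay at 8.83 to 9.44 in every vessel and differed by 0.07, 0.17 and 0.40, none of which passed.

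**Figure D3:**
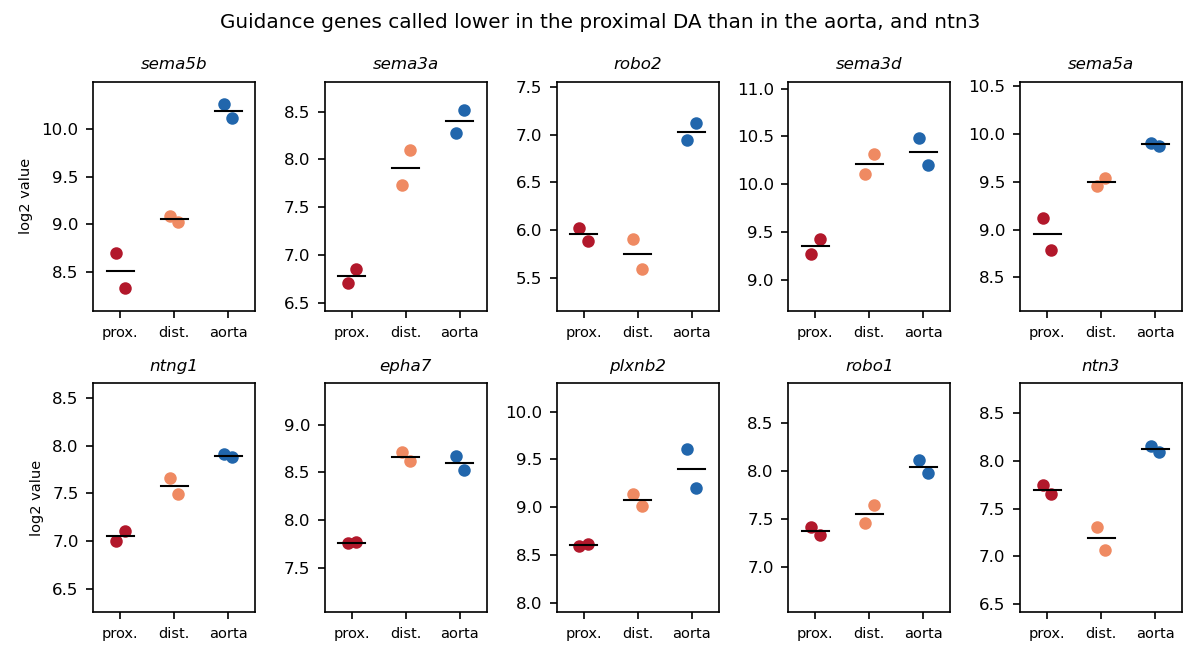
Log2 value on each array (points) and mean of the 2 arrays (lines) in the proximal DA, distal DA and aorta for the 9 guidance genes called lower in the proximal DA relative to the aorta, and for *ntn3*; every panel spans the same number of log2 units. In *sema3d* and *epha7* the distal DA overlaps the aorta, in *robo2* it overlaps the proximal DA, and in *ntn3* it is the lowest vessel.

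Of the netrins, only *ntng1*, a membrane-anchored netrin that does not bind DCC, was called between the proximal DA and the aorta. Its values were 7.0 and 7.11 for the proximal DA, 7.66 and 7.49 for the distal DA and 7.91 and 7.88 for the aorta. They rose in this order without overlap, and the proximal DA was lower by -0.84 ± 0.141 (1.79-fold, adjusted p = 0.0155). The secreted netrins gave differences of -0.43 for *ntn3*, 0.39 for *ntn4* and 0.56 for *ntn4l*, and none of these passed. The UNC5 receptors, which turn netrin signals into repulsion, differed by -0.01 to 0.41, and *unc5c* had the smallest p of the 4 (adjusted p = 0.362).

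Of the 2 Slits, *slit3* was called higher in the proximal DA, and of the 3 Robos, *robo1* and *robo2* were called lower. *Slit3*, a secreted ligand with log2 values of 10.30 and 10.20 for the proximal DA, 9.62 and 10.02 for the distal DA and 9.04 and 9.51 for the aorta, was higher by 0.97 ± 0.209 (1.97-fold, adjusted p = 0.0400). The vessels did not overlap, but the arrays of the distal DA and of the aorta were each spread by more than those of the proximal DA. *Slit2*, its close relative, was 9.31 and 9.49, 8.56 and 8.75, and 8.78 and 9.02. Its difference from the aorta of 0.50 did not pass (adjusted p = 0.142).

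*Robo1* and *robo2*, receptors of Slits, lie near each other on chromosome 1 with 1 protein-coding gene between them. *Robo2* had log2 values of 6.02 and 5.89 for the proximal DA, 5.91 and 5.59 for the distal DA and 6.94 and 7.12 for the aorta. Its DA values lay little above the lower quartile, so the sizes of its differences from the aorta are not exact. Both parts of the DA were below the aorta and overlapped each other, with -1.07 ± 0.165 for the proximal DA (2.11-fold lower, adjusted p = 0.0109). *Robo1* was 7.41 and 7.33, 7.46 and 7.64, and 8.11 and 7.98. It was likewise lower than the aorta in both parts, by -0.68 ± 0.144 in the proximal DA (1.60-fold, adjusted p = 0.0400). This call was lost without any 1 of the proximal DA and aorta arrays. It was also lost in the separate fit of the proximal DA and the aorta, which leaving out a distal DA array repeats. *Robo3* differed by 0.28 and was not called (adjusted p = 0.628).

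Leaving out an array leaves its vessel with a single array and gave 3 to 5 genes called higher and 2 to 7 called lower between the proximal DA and the aorta. *Plxna2*, *sema3f*, *sema3g*, *sema3a* and *sema5b* were called under all 13 alternative settings, and they were the only ones left without proximal DA replicate 2. *Robo2* lost its call without that array, and *epha2* without either proximal DA array. *Epha7*, *sema3d* and *slit3* were not called without either proximal DA array or aorta replicate 1, *sema5a* without proximal DA replicate 2 or either aorta array, and *ntng1* without any of these 4 arrays. Their differences kept their direction throughout, from 0.74 to 1.21 for *slit3* and from -1.13 to -0.85 for *sema3d*. *Sema4d* was called higher without proximal DA replicate 1.

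Between the distal DA and the descending aorta, only *sema5b*, *robo2* and *ntn3* were called. Of the 50 genes, 3 were called lower and 0 higher, which is 6.0%, while 1.6% of all probe sets were called (0.644% lower and 0.952% higher). Among genes with a symbol and a mean above that of the median probe set, 2.93% of 6825 were called. Of the guidance genes above that level, 2 of 37 were called (5.41%). At an unadjusted p under 0.05 in limma, 8 were higher and 8 lower, beside 10.8% of all probe sets. Values did not overlap in 29 genes, compared with 39.7% of all probe sets, and the median difference was 0.04. The aorta arrays are the same as in the comparison of the proximal DA, so the calls of these comparisons are not independent. Endothelial markers were called higher in 7 of 15 and smooth muscle markers in 7 of 8 in the distal DA, fibroblast and adventitial markers higher in 1 and lower in 1 of 11, and red blood cell markers higher in 1 of 10. With an unadjusted p under 0.05 in limma, 11 of 15 endothelial, 8 of 8 smooth muscle and 6 of 10 red blood cell markers were higher. Fibroblast and adventitial markers were then higher in 1 and lower in 5 of 11. The part of these cell types in the differences was not tested.

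In *sema5b* and *robo2*, both parts of the DA were below the aorta. With the array values given above, the distal DA lay below the aorta by -1.13 ± 0.168 in *sema5b* (adjusted p = 0.0231) and by -1.28 ± 0.165 in *robo2* (adjusted p = 0.0143). The corresponding differences of the proximal DA were -1.67 and -1.07. *Ntn3*, a secreted netrin, had values of 7.75 and 7.65 for the proximal DA, 7.31 and 7.07 for the distal DA and 8.16 and 8.09 for the aorta. The distal DA was the lowest vessel without overlap, at -0.94 ± 0.148 from the aorta (adjusted p = 0.0300), while the proximal DA was lower by -0.43 (adjusted p = 0.177). The *ntn3* call was lost when any 1 of the distal DA and aorta arrays was left out. It was also lost in the separate fit of the distal DA and the aorta, which leaving out a proximal DA array repeats. The call of *sema5b* was lost without any 1 of the distal DA and aorta arrays, and that of *robo2* without either distal DA array or aorta replicate 2, with differences of -1.21 to -1.05 and -1.44 to -1.12.

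Of the genes that did not pass in the distal DA, *plxna2* came closest on the higher side, at 0.85 ± 0.168 (adjusted p = 0.0639). It was called when only the brighter part of the probe sets was tested or replicate numbers entered the fit as a block. In *epha7* the distal DA and the aorta differed by 0.07 with a 95% confidence interval of -0.254 to 0.394, and in *sema3d* by -0.12 with an interval of -0.51 to 0.26. The smallest p among the UNC5 receptors belonged to *unc5a* (0.18, adjusted p = 0.827).

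Between the proximal and the distal DA, 0 of the 50 guidance genes were called in either direction by limma, beside 0.25% of all probe sets (0.159% higher and 0.0913% lower in the proximal DA). At an unadjusted p under 0.05, 10 were higher and 8 lower, beside 7.31% of all probe sets. Values did not overlap in 27 genes, compared with 32.7% of all probe sets. Of the cell type markers, *tyr* of melanocytes (2.81) and *sftpa2* of lung epithelium (1.73) were called higher and *fbln1* of fibroblasts and adventitia (-1.14) lower in the proximal DA, while 0 of 15 endothelial and 0 of 8 smooth muscle markers were called. More markers passed at an unadjusted p under 0.05 in limma. Those of endothelium were higher in 8 of 15, and those of smooth muscle higher in 4 and lower in 1 of 8. Melanocyte markers were higher in 6 of 8, lung epithelial markers in 5 of 8 and leukocyte markers in 2 of 6. Fibroblast and adventitial markers were lower in 4 of 11. The part of these cell types in the differences of guidance genes was not tested. The differences ran from -1.14 in *sema3a* to 0.74 in *slit2*. When only the brighter part of the probe sets was tested, *sema3a* and *epha7* were called lower in the proximal DA (adjusted p = 0.0303 for both).

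The members with the smallest p in each family in this comparison were *epha7*, *sema3a*, *slit2*, *plxna2*, *ntn4*, *unc5c*, *robo1* and *efnb2*. *Epha7* was lower in both proximal arrays by -0.90 ± 0.138 (adjusted p = 0.0667). *Slit2* was higher in both by 0.74 ± 0.160 (95% confidence interval 0.371 to 1.12, adjusted p = 0.178). *Ntn4*, a netrin of basement membranes, had values of 8.23 and 8.22 for the proximal DA, 7.71 and 7.67 for the distal DA and 7.90 and 7.77 for the aorta. The proximal DA was above both other vessels, and above the distal DA by 0.54 ± 0.135 (adjusted p = 0.263). The differences were 0.52 in *unc5c*, -0.18 in *robo1* and 0.22 in *efnb2*; in *efnb2* the parts of the DA overlapped.

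**Figure D4:**
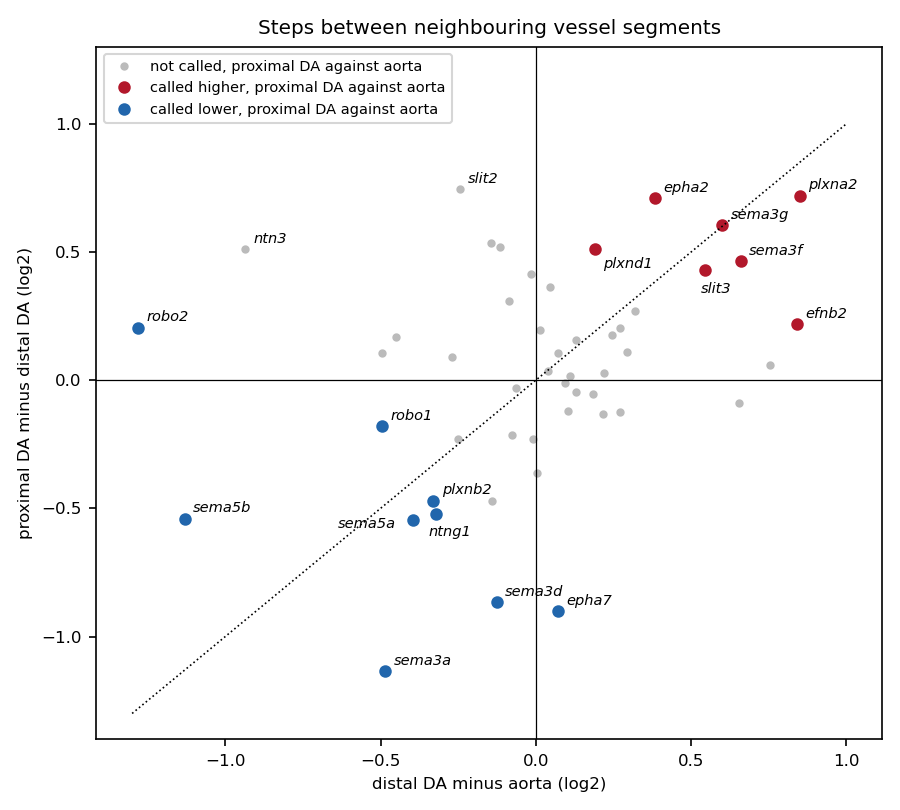
Each of the 50 guidance genes by its log2 difference between the distal DA and the aorta (horizontal axis) and between the proximal and the distal DA (vertical axis); coloured genes were called between the proximal DA and the aorta, with equal steps along the dotted line. In *sema3a*, *sema3d* and *epha7* the step within the DA is the larger, and in *robo2*, *sema5b* and *efnb2* the step between the distal DA and the aorta.

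The place of the distal DA between its neighbours differed among the guidance genes. Its mean lay between those of the proximal DA and the aorta in 31 of the 50 genes (62.0%), beside 47.1% of all probe sets, and was the highest in 9 and the lowest in 10. A stepwise change, with the proximal DA against the distal DA and the distal DA against the aorta both called in the same direction, was found in 0 genes, beside 0.0721% of all probe sets. Of the 16 genes called between the proximal DA and the aorta, the distal mean lay between the others in 14. The exceptions were *epha7*, in which it was the highest, and *robo2*, in which it was the lowest. A gene whose outer vessels are far apart leaves more room between them, and this count is given as a description.

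The step inside the DA was the larger in 9 of these 16 genes and the step between the distal DA and the aorta in 7. Taken as the more proximal vessel minus the next, *sema3d* changed by -0.86 within the DA and -0.12 beyond it, and *plxnd1* by 0.51 and 0.19. *Efnb2*, in contrast, changed by 0.22 and 0.84, and *robo1* by -0.18 and -0.49. *Plxna2* and *sema3g* had steps of nearly equal size, at 0.72 and 0.85, and 0.60 and 0.60. The steps share the distal DA arrays, and their sizes were not tested against each other.

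Of the partners of these receptors at the cell surface, *rgma* alone was called, at the adjusted threshold a share of the list near that of all probe sets. Of 20 co-receptors and further ligands listed, 14 were measured. Between the proximal DA and the aorta 0 were called higher and 1 lower, beside 5.66% of all probe sets in either direction. At an unadjusted p under 0.05 in limma, 2 of the 14 were higher and 3 lower, beside 18.1% of all probe sets in either direction. The median difference was -0.07. The gene called was *rgma*, a membrane-anchored ligand of neogenin, at 8.14 and 8.06 for the proximal DA, 8.35 and 8.55 for the distal DA and 8.87 and 8.97 for the aorta. Its values rose without overlap, and the proximal DA was lower by -0.82 (adjusted p = 0.0187), a call that was lost without either proximal DA array or aorta replicate 2 (-0.87 to -0.77 over the alternatives). *Nrp1*, the neuropilin that binds *sema3a*, was 10.73 on both proximal arrays, 11.09 and 11.08 in the distal DA and 10.79 on both aorta arrays. The distal DA was the highest, by 0.29 over the aorta (adjusted p = 0.489), and *nrp1* was not called in any comparison. None of the 14 was called in the distal DA against the aorta or between the parts of the DA, where 1.6% and 0.25% of all probe sets were called. At an unadjusted p under 0.05 in limma, 2 were lower and 0 higher in each, beside 10.8% and 7.31% of all probe sets.

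Among genes that carry guidance signals inside the cell, 53 were listed and 40 measured, and 3 were called higher and 3 lower in the proximal DA relative to the aorta, beside 3.33% higher and 2.34% lower of all probe sets. At an unadjusted p under 0.05 in limma, 9 were higher and 4 lower, beside 18.1% of all probe sets in either direction. *Chn2*, a chimaerin that switches off the GTPase Rac, had log2 values of 7.84 and 8.41 for the proximal DA, 6.83 and 6.89 for the distal DA and 6.20 and 6.28 for the aorta. It was higher by 1.89 ± 0.199 (adjusted p = 0.00248), a larger difference than that of any guidance gene, whereas its relative *chn1* was lower. *Chn1*, at 7.63 and 7.67, 8.14 and 8.45, and 8.30 and 8.43, differed by -0.71 (adjusted p = 0.0444), with both proximal arrays below the rest.

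*Farp1* was 8.45 and 8.85 for the proximal DA, 7.56 and 7.64 for the distal DA and 7.41 and 7.43 for the aorta (1.23, adjusted p = 0.00711). *Dpysl3*, a collapsin response mediator protein that acts on the cytoskeleton, was 8.71 and 8.87, 7.94 and 7.90, and 8.13 and 8.05 (0.70, adjusted p = 0.0298). Both proximal arrays were the highest in each of these genes, without overlap. *Mical2*, an enzyme that oxidises actin, differed by -0.96 (adjusted p = 0.0268) and *ablim1*, an actin-binding protein, by -0.77 (adjusted p = 0.0461). Both rose from the proximal DA over the distal DA to the aorta. None of the 40 was called by limma in the distal DA against the aorta or between the parts of the DA, where 1.6% and 0.25% of all probe sets were called. At an unadjusted p under 0.05 in limma, 3 were higher and 4 lower in the distal DA against the aorta, beside 10.8% of all probe sets. Between the parts of the DA 6 were higher and 2 lower, beside 7.31%. The calls of *chn2* and *farp1* were lost in no alternative setting. Those of *chn1* and *dpysl3* were lost when any 1 of the proximal DA and aorta arrays was left out. They were also lost in the separate fit of the proximal DA and the aorta, which leaving out a distal DA array repeats. The call of *mical2* was lost without any 1 of the proximal DA and aorta arrays (-1.15 to -0.76 over the alternatives). That of *ablim1* was lost in 8 of the 13 settings, namely both other normalizations, the separate fit of the pair of vessels and the omission of each array but aorta replicate 2 (-0.94 to -0.59). Of these settings, leaving out either distal DA array repeats the separate fit of the pair.

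**Figure D5:**
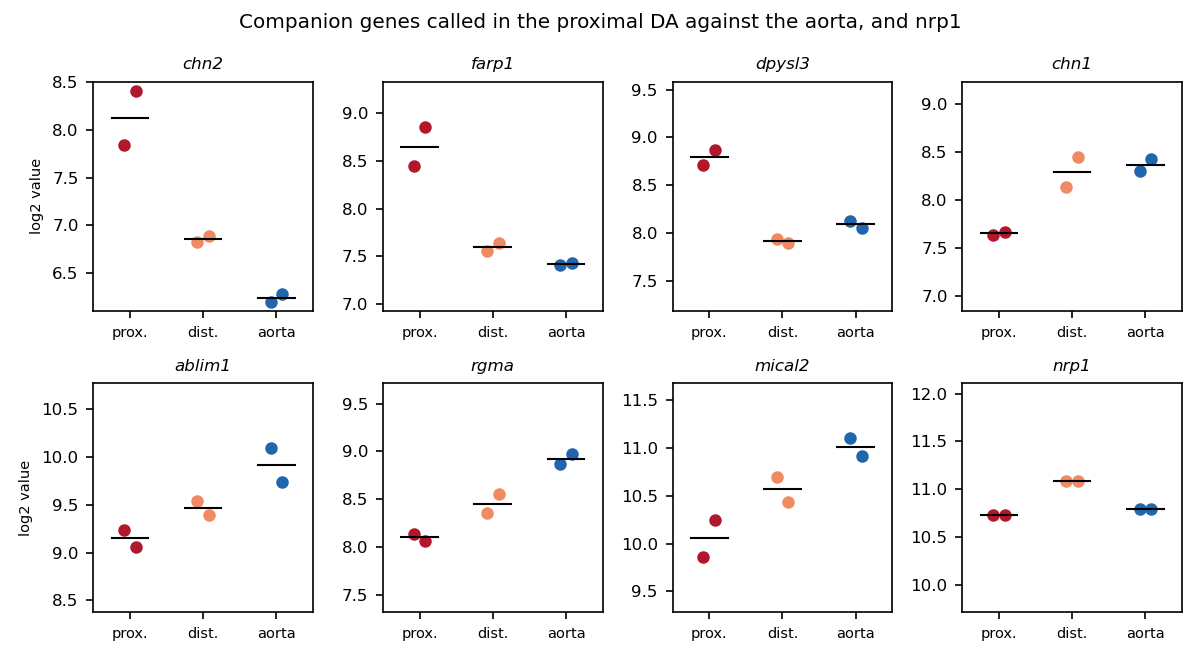
Log2 value on each array (points) and mean of the 2 arrays (lines) in the proximal DA, distal DA and aorta for the co-ligand and signalling genes called in the proximal DA against the aorta, and for *nrp1*; every panel spans the same number of log2 units. *Chn2* and *chn1* run in opposite directions, and *nrp1* is highest in the distal DA.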

How the data were processed

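The authors pooled the tissue of 10 embryos for each RNA preparation, hybridized material from 100 ng of total RNA to GeneChip Chicken Gene 1.0 ST arrays, read the arrays in Command Console 2.0 and applied RMA from the package oligo 1.40.1 of Bioconductor 3.5. RMA corrects background, equalises the distributions of the arrays and summarises each probe set. The values deposited are on the log2 scale and carry no detection call. Each vessel is represented by 2 arrays alone, which limits the precision. For the annotation of the array, the sources used here name no genome build. A single symbol was given for 12300 probe sets, several for 256 and none for 8248. For 47 of the 50 genes, RefSeq (GRCg7b) held the gene ID and gave which genes neighbour each other.

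All 20804 probe sets of the 6 arrays were fitted in limma 3.58.1 under R 4.3.3 by lmFit and contrasts.fit, then eBayes with no trend, with 3 vessel means, 3 residual and 4.40 prior degrees of freedom. Tests were two-sided, Benjamini-Hochberg adjusted within each comparison, with a threshold of 0.05, and the fit was tested on simulated data. Genes were named if called in any comparison or, in a family without a call, by the smallest p, with *sema3a* and the called companion genes in addition. Other members named were chosen after their values were seen. The families, the companion lists and the cell type markers were chosen with earlier results of these data known.

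The 13 alternatives were cyclic loess, repeated quantile normalization, eBayes with a trend and robust variances, a separate fit per pair of vessels, the brighter probe sets alone, the median over a gene's probe sets, each of the 6 arrays left out, and replicate numbers as a block. Where an array is left out, the remaining array of that vessel is assumed to vary like the others. For the comparison that does not involve that vessel, leaving it out repeats the separate fit of the pair and adds no further check. No 2 arrays held identical values throughout.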

Additional observations from a re-analysis of the deposited data

Results flagged for a closer look

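In *slit2* and *ntn4* the 2 parts of the DA lay on opposite sides of the aorta on every array. How often this pattern occurs over all probe sets was not counted. *Slit2* was 9.31 and 9.49 for the proximal DA, 8.56 and 8.75 for the distal DA and 8.78 and 9.02 for the aorta, and its parts differed by 0.745 ± 0.160 (SE). *Ntn4* was 8.23 and 8.22, 7.71 and 7.67, and 7.90 and 7.77, with a difference of 0.535 ± 0.135 (SE). Neither part of the DA was called against the aorta in limma. The distal DA differed from it by -0.245 in *slit2* (adjusted p = 0.714) and -0.145 in *ntn4* (adjusted p = 0.830). For the proximal DA the differences were 0.50 (adjusted p = 0.142) and 0.39 (adjusted p = 0.175). The aorta arrays are shared by both contrasts, so the difference between them is that between the parts of the DA, and it did not pass in limma for *slit2* (adjusted p = 0.178; 0.0904 to 0.753 over the alternatives) or *ntn4* (adjusted p = 0.263; 0.150 to 0.974).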

How the results depend on the processing

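With 2 arrays per vessel, the number of arrays limits what could be detected. Leaving out each array in turn gave 3 to 5 guidance genes higher and 2 to 7 lower in the proximal DA relative to the aorta, 0 to 2 lower and 0 higher in the distal DA relative to the aorta, and 0 in either direction between the parts of the DA. Over all probe sets these counts were 261 to 530, 191 to 597, 36 to 145 higher, 16 to 141 lower, 0 to 36 and 0 to 19, against 692, 486, 198, 134, 33 and 19 with every array. Without proximal DA replicate 2, *efnb2* differed by -0.065 between the proximal and the distal DA instead of 0.22, and the highest value with an array left out was 0.505. With proximal DA replicate 1 left out, 5 guidance genes were higher and 4 lower than in the aorta, and with aorta replicate 1 left out, 5 and 3.

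Restricting the test to the brighter probe sets called 2 guidance genes higher in the distal DA relative to the aorta (*plxna2* and *sema3f*), 2 lower in the proximal relative to the distal DA, and 61 higher and 46 lower of all probe sets there; *robo2* was not among the 37 guidance genes tested. With trend and robust, 34 of all probe sets were lower there. The deviations of same-numbered arrays from their vessel means correlated at 0.321 between the parts of the DA. Against the aorta they correlated at 0.199 for the distal DA and -0.034 for the proximal DA. The labels do not tie replicate numbers to a shared pool, and whether they pair the arrays was not tested. The main fit leaves replicate numbers out, and a block of these numbers lowered the median SE from 0.167 to 0.144. With these numbers as a block, 1 guidance gene (*plxna2*) was higher in the distal DA relative to the aorta, against the aorta the proximal DA had 6 higher and 8 lower, and 0 of all probe sets were called in either direction between the parts of the DA (991 higher and 852 lower at an unadjusted p under 0.05 in limma). The cause of these changes was not tested. Of the values of named genes under the alternatives, 434 kept their direction and side of the threshold, 90 lost a call, 4 gained one and 1 reversed. The 434 include results not called in the main fit, which had no call to lose. The share of calls lost is therefore larger than these counts give. Each repeat of a pair fit, from leaving out an array of the vessel outside the comparison, is counted here as well.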
